A study of Drosophila melanogaster with 16 samples.

Results

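The genes described here are the midgut serine protease genes of the Jonah and trypsin families of *Drosophila melanogaster*, together with *Ser6*, *Ser8*, *Ser12* and *yip7*. The list holds 31 genes, and they were chosen by name: 16 genes whose symbol starts with *Jon*, 11 genes whose symbol ends with *Try*, and the 4 others. The array had a named probe set for 26 of the 31, which are 13 Jonah genes, 9 trypsin genes and all 4 others. Each of the 26 was read by 1 probe set that names no other gene, out of 18769 probe sets that were not controls and 11982 genes with such a probe set. The genes *Jon99Cii*, *Jon99Ciii*, *Jon99Fii*, *gammaTry* and *deltaTry* had no probe set named for them and were not analysed here.

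Serine proteases of this kind are secreted into the lumen of the larval midgut, where they cut food proteins into peptides. Trypsins cut behind the basic residues lysine and arginine and are made as inactive precursors that are activated by cleavage. The Jonah genes encode a related group of gut-expressed serine proteases. In flies, digestive enzymes are made in the enterocytes, and their transcript levels follow diet, for example through the Activin-like ligand *daw* and the sugar-sensing factors *Mondo* and *sug*.

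Whole, still feeding larvae late in the third instar were pooled by 10, and each pool was read on 1 Affymetrix Drosophila array. The 3 groups were Canton-S, a wild-type laboratory stock that the toxin kills (5 pools, non-toxic food), Ama-KTT/M/2, a resistant stock (5 pools, same food), and Ama-KTT/M/2 raised from the first instar with α-amanitin in the food (6 pools). α-Amanitin is a mushroom toxin that blocks RNA-polymerase II. The study asked which genes differ between the stocks without the toxin and which respond to the toxin in the resistant stock. The toxin concentration is 1.5 μg per g of food in the study's methods. The sample labels print 1.5 mg per g, which conflicts with the study's lethal concentrations, all given in μg per g. The study puts the dose slightly below the median lethal concentration of Ama-KTT/M/2, and the sample titles equate it with that concentration. All larvae were kept at 25°C. Ama-KTT/M/2 is a single isochromosome line that is homozygous for chromosomes 2 and 3 and was made by crosses to a multi-balancer stock, and its X chromosome was not made uniform. Toxin resistance and the rest of the genetic background therefore cannot be told apart in the comparison of the stocks. Larvae on the toxin grew more slowly, so that the toxin, growth rate and age cannot be told apart either, and the larvae measured were those that had survived. No source used here gives the sex of the larvae. The pools are separate sets of larvae of 1 stock, and the p-values rest on their spread. Unless the toxin is named, Ama-KTT/M/2 stands for the pools on non-toxic food.

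The values are intensities on a linear scale, already normalized between arrays, with a median of 62.4 to 72.9 per array. Intensities of different probe sets are not on a common scale, so a level is compared only between groups and not between genes. The protease genes gave strong signals: 12 of the 26 lay above the 95th percentile of their own array in every pool, and 19 lay above the 90th. *Ser8* and *Ser12* were dim, at percentiles of 49.5 to 65.6 and 42.1 to 63.4 of their arrays. A gene is referred to as called where limma gave an adjusted p under 0.05 over all probe sets and a change of at least 2-fold on the log2(intensity + 16) scale. A gene that passed at the adjusted p alone is referred to as passing below the fold limit. Whole larvae were used, so that a lower value can stand for fewer midgut cells or for less RNA per cell, and these cannot be told apart. The pools of 3 replicates stood apart from their groups in genes of other tissues, namely replicate 4 of Canton-S, replicate 5 of Ama-KTT/M/2 and replicate 2 on α-amanitin. When these 3 pools were left out, none of the 78 results of a protease gene in a comparison changed its direction or its call at 2-fold, and the counts at the adjusted p alone moved by at most 3 genes.

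On non-toxic food, several protease genes had much lower levels in the resistant stock than in Canton-S. Of the 26 genes, 5 were called lower and 1 was called higher, where 2.42% and 3.27% of all probe sets were called (5.68% in either direction). The 5 lower genes were *Jon66Cii*, *Jon44E*, *Jon99Ci*, *thetaTry* and *iotaTry*, by 5.40- to 2.42-fold, and the gene called higher was *Ser6*. At the adjusted p alone, 14 genes were lower and 5 were higher, with 18.8% and 24.6% of all probe sets. By rank products, a test on ratios of same-numbered pools, 8 were lower and 1 was higher. The shares of all probe sets that passed are from limma, and none is given for rank products in any comparison. Whether the protease genes stand out from the array by rank products therefore cannot be read from these counts. The pools of the stocks did not overlap for 11 genes that were lower and 3 that were higher, beside 12.9% and 18.8% of all probe sets. The plot of intensities per pool shows the 10 genes that were called in at least 1 comparison.

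**Figure D1:**
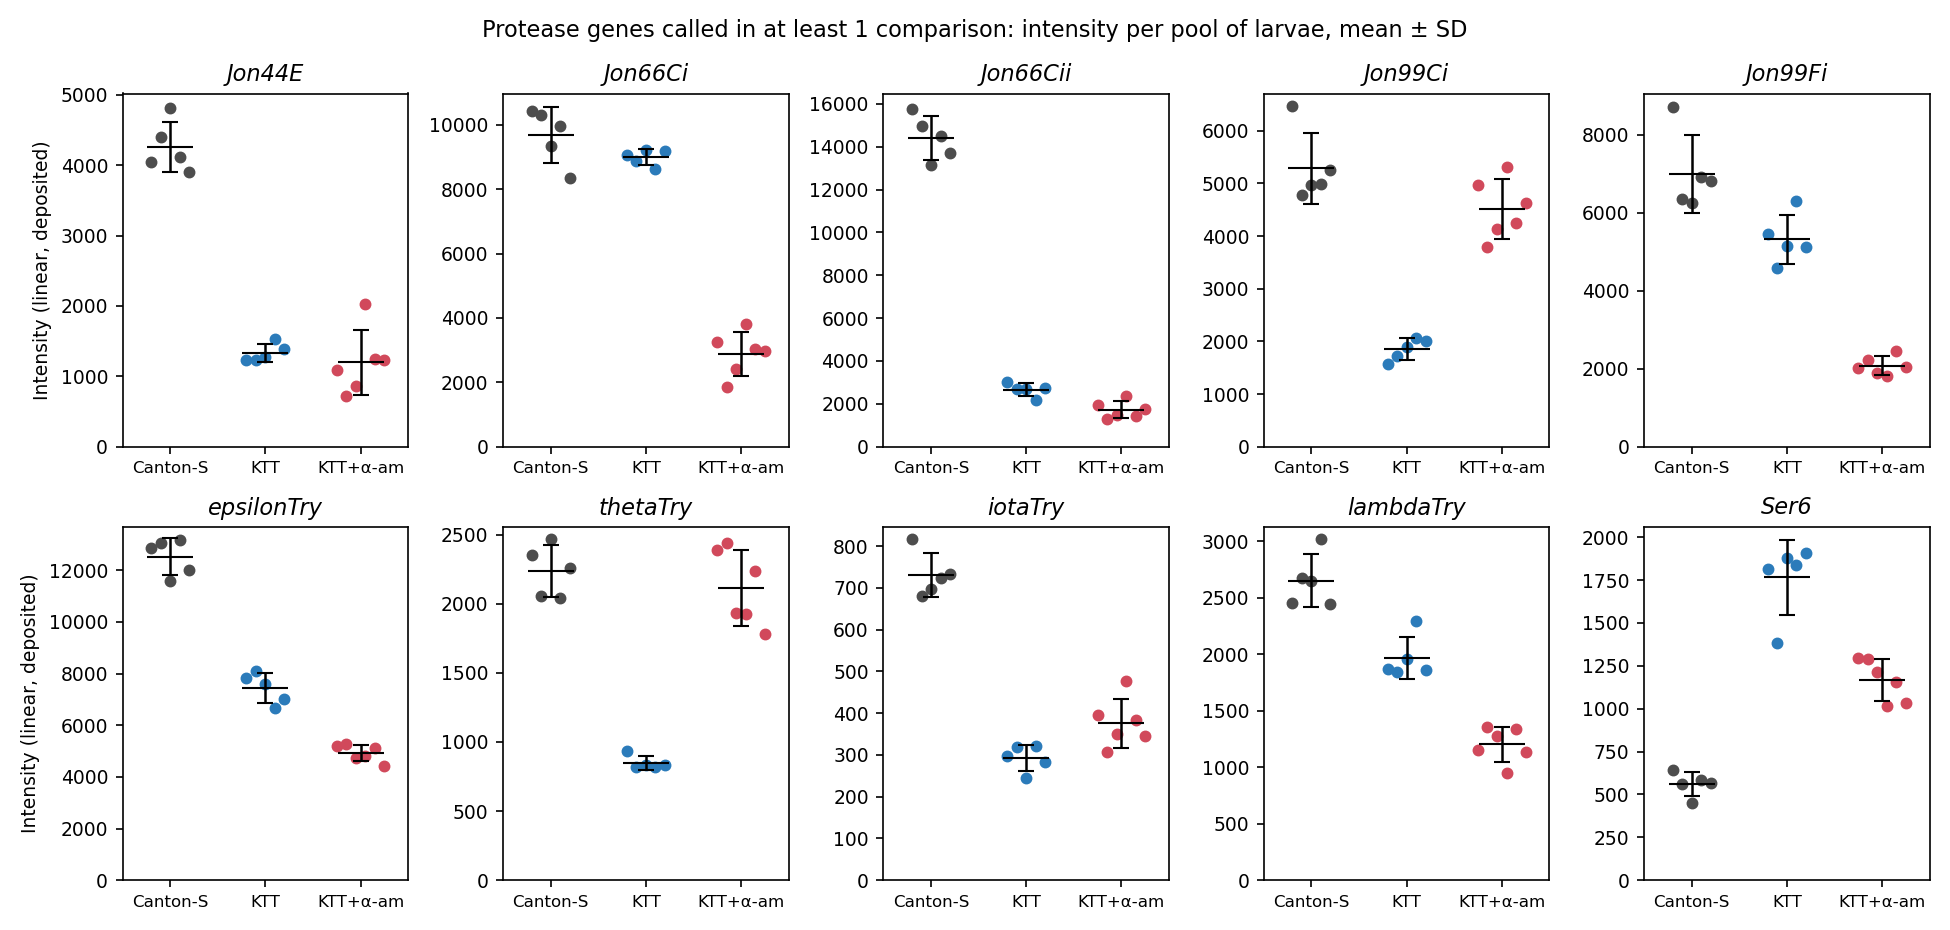
Intensity (linear, as deposited) of the 10 protease genes called in at least 1 comparison, with 1 point per pool of 10 larvae for Canton-S (5 pools), Ama-KTT/M/2 (KTT, 5 pools) and the same stock on α-amanitin (KTT+α-am, 6 pools), and bars for the mean ± SD. *Jon66Cii* was between 13159.7 and 15758 in Canton-S and at most 3013 in every other pool, and *thetaTry* and *Jon99Ci* were low only in KTT.

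The largest difference was that of *Jon66Cii*, a Jonah protease gene on chromosome arm 3L. Its intensity in the 5 Canton-S pools was 15758, 14982, 13159.7, 14483 and 13709. In the 5 Ama-KTT/M/2 pools it was 3013, 2669, 2709.6, 2200.1 and 2728. All Ama-KTT/M/2 pools were far below all Canton-S pools. The means were 2664 ± 293 (SD, n = 5) and 14418 ± 1025 (SD, n = 5), which is 5.40-fold lower (limma, adjusted p = 3.72e-10). Its neighbour on the chromosome, *Jon66Ci*, with no other gene between them, had 8996 ± 242 (SD, n = 5) in Ama-KTT/M/2 and 9683 ± 858 (SD, n = 5) in Canton-S. This difference was not called, and its 95% interval on the log2 scale went from -0.40 to 0.19 (limma, adjusted p = 0.593).

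*Jon44E*, a Jonah gene on 2R, had intensities of 4051, 4400.3, 4815, 4115 and 3905 in Canton-S. They were 1232, 1236, 1271, 1530.2 and 1388 in Ama-KTT/M/2. The groups did not overlap, and the level was 3.17-fold lower (limma, adjusted p = 2.73e-06). *Jon99Ci*, which lies on 3R beside *Jon99Cii* and *Jon99Ciii*, had 6464, 4783, 4962, 4988 and 5251 in Canton-S. In Ama-KTT/M/2 it had 1571, 1723, 1900.3, 2058 and 2012. Here too every Ama-KTT/M/2 pool was below every Canton-S pool, and the level was 2.84-fold lower (limma, adjusted p = 8.27e-09).

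Among the other 10 Jonah genes, none was called between the stocks. *Jon65Aii* and *Jon25Bi* passed below the fold limit with higher levels in Ama-KTT/M/2, by 1.32- and 1.22-fold. *Jon99Fi* and *Jon74E* passed below the limit with lower levels, by 1.31- and 1.23-fold. By rank products none of these 4 passed (adjusted p = 0.343 to 0.765). *Jon74E* was near the limit in limma (adjusted p = 0.0396) and did not pass with an offset of 1 (0.0501), with the replicate number as a block (0.0562), without the 3 pools that stood apart (0.0682), or when replicate 2, 3 or 4 of Canton-S or replicate 1, 3, 4 or 5 of Ama-KTT/M/2 was left out (0.062 to 0.0896). *Jon25Bi* did not pass when quantile normalization was repeated (0.0544). *Jon65Aiv* and *Jon65Aiii* did not pass the test. *Jon65Aiv* had 12318 ± 386 (SD, n = 5) in Ama-KTT/M/2 and 11971 ± 332 (SD, n = 5) in Canton-S. *Jon65Aiii* had 11612 ± 735 (SD, n = 5) and 10865 ± 630.4 (SD, n = 5). The interval of the log2 difference was -0.05 to 0.13 for *Jon65Aiv* and -0.04 to 0.23 for *Jon65Aiii*, and both genes as well as *betaTry* took the opposite sign when quantile normalization was repeated. *Jon25Bii*, *Jon25Biii* and *Jon65Ai* did not pass the test, with log2 differences of 0.22, -0.12 and -0.04, except that *Jon25Biii* passed with repeated quantile normalization (adjusted p = 0.0171) and *Jon25Bii* without the 3 pools that stood apart (0.0478).

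In the limma fit most of the trypsin genes had lower levels in the resistant stock. Of the 9 measured, 2 were called lower and 5 more passed with lower levels below the fold limit, whereas by rank products 3 passed with lower levels (*thetaTry*, *iotaTry* and *epsilonTry*) and none with a higher one. Only *zetaTry* passed with a higher level, and *betaTry* did not pass. The corresponding counts of the 13 Jonah genes were 5 lower, 2 higher and 6 that did not pass, and by rank products 3 lower and 0 higher. The median log2 difference of the 9 trypsin genes was -0.52, against -0.10 for the 13 Jonah genes and 0.01 for all probe sets. When quantile normalization was repeated, the trypsin median was -0.60 and the Jonah median -0.22. The Jonah median hides the 3 genes with large differences, as the mean over the family was -0.42, near the -0.51 of the trypsin genes. These medians are descriptions of chosen genes and were not tested.

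Of the 2 called trypsin genes, *thetaTry* lies inside the gene cluster and *iotaTry* at its far end. The intensity of *thetaTry* was 2352, 2059, 2471, 2042 and 2257 in Canton-S and 936, 816, 831, 819 and 831 in Ama-KTT/M/2. The highest Ama-KTT/M/2 pool was well below the lowest Canton-S pool. The level was 2.61-fold lower (limma, adjusted p = 2.86e-09). *iotaTry* had 817, 679.8, 698, 724 and 733 in Canton-S and 297, 319, 245, 322 and 284 in Ama-KTT/M/2. This was 2.42-fold lower without overlap (limma, adjusted p = 3.99e-08).

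The other 5 trypsin genes with lower levels in Ama-KTT/M/2 passed below the fold limit. *epsilonTry* had the largest of these differences, with 7446 ± 583 (SD, n = 5) against 12531 ± 705 (SD, n = 5), which is 1.68-fold lower. *alphaTry* was 1.48-fold, *kappaTry* 1.43-fold, *lambdaTry* 1.34-fold and *etaTry* 1.21-fold lower. By rank products these 4 did not pass (adjusted p = 0.101 to 0.624), and neither did *zetaTry* (0.126). *etaTry* had 888 ± 40.4 (SD, n = 5) in Ama-KTT/M/2 and 1078 ± 43.8 (SD, n = 5) in Canton-S. *zetaTry*, which lies inside the same cluster, had 2797 ± 79.4 (SD, n = 5) against 1865 ± 151 (SD, n = 5) and was 1.50-fold higher without overlap. *betaTry* had 12638 ± 865 (SD, n = 5) against 12307 ± 381 (SD, n = 5), with a 95% interval of the log2 difference from -0.09 to 0.16.

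The 4 genes outside both families went in different directions. *Ser6*, a serine protease gene and the only measured gene of the list on the X chromosome, had 643, 562, 451, 586 and 569 in Canton-S. It had 1816, 1382, 1881, 1837 and 1910.5 in Ama-KTT/M/2. All pools of the resistant stock were higher, by 3.08-fold on average (limma, adjusted p = 3.58e-09). *yip7*, which lies 2 genes from the *Jon65A* genes and is related to them, was 1.28-fold higher, with 7478 ± 698 (SD, n = 5) against 5826 ± 198 (SD, n = 5), and did not pass by rank products (adjusted p = 0.575). The dim genes *Ser12* and *Ser8* passed with lower levels, by 1.85- and 1.65-fold. *Ser12* had 58.0 ± 4.36 (SD, n = 5) against 121 ± 14.9 (SD, n = 5), and *Ser8* had 72.7 ± 6.01 (SD, n = 5) against 132 ± 20.6 (SD, n = 5). With an offset of 1 in place of 16, *Ser12* was called as well, with a log2 difference of -1.04.

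**Figure D2:**
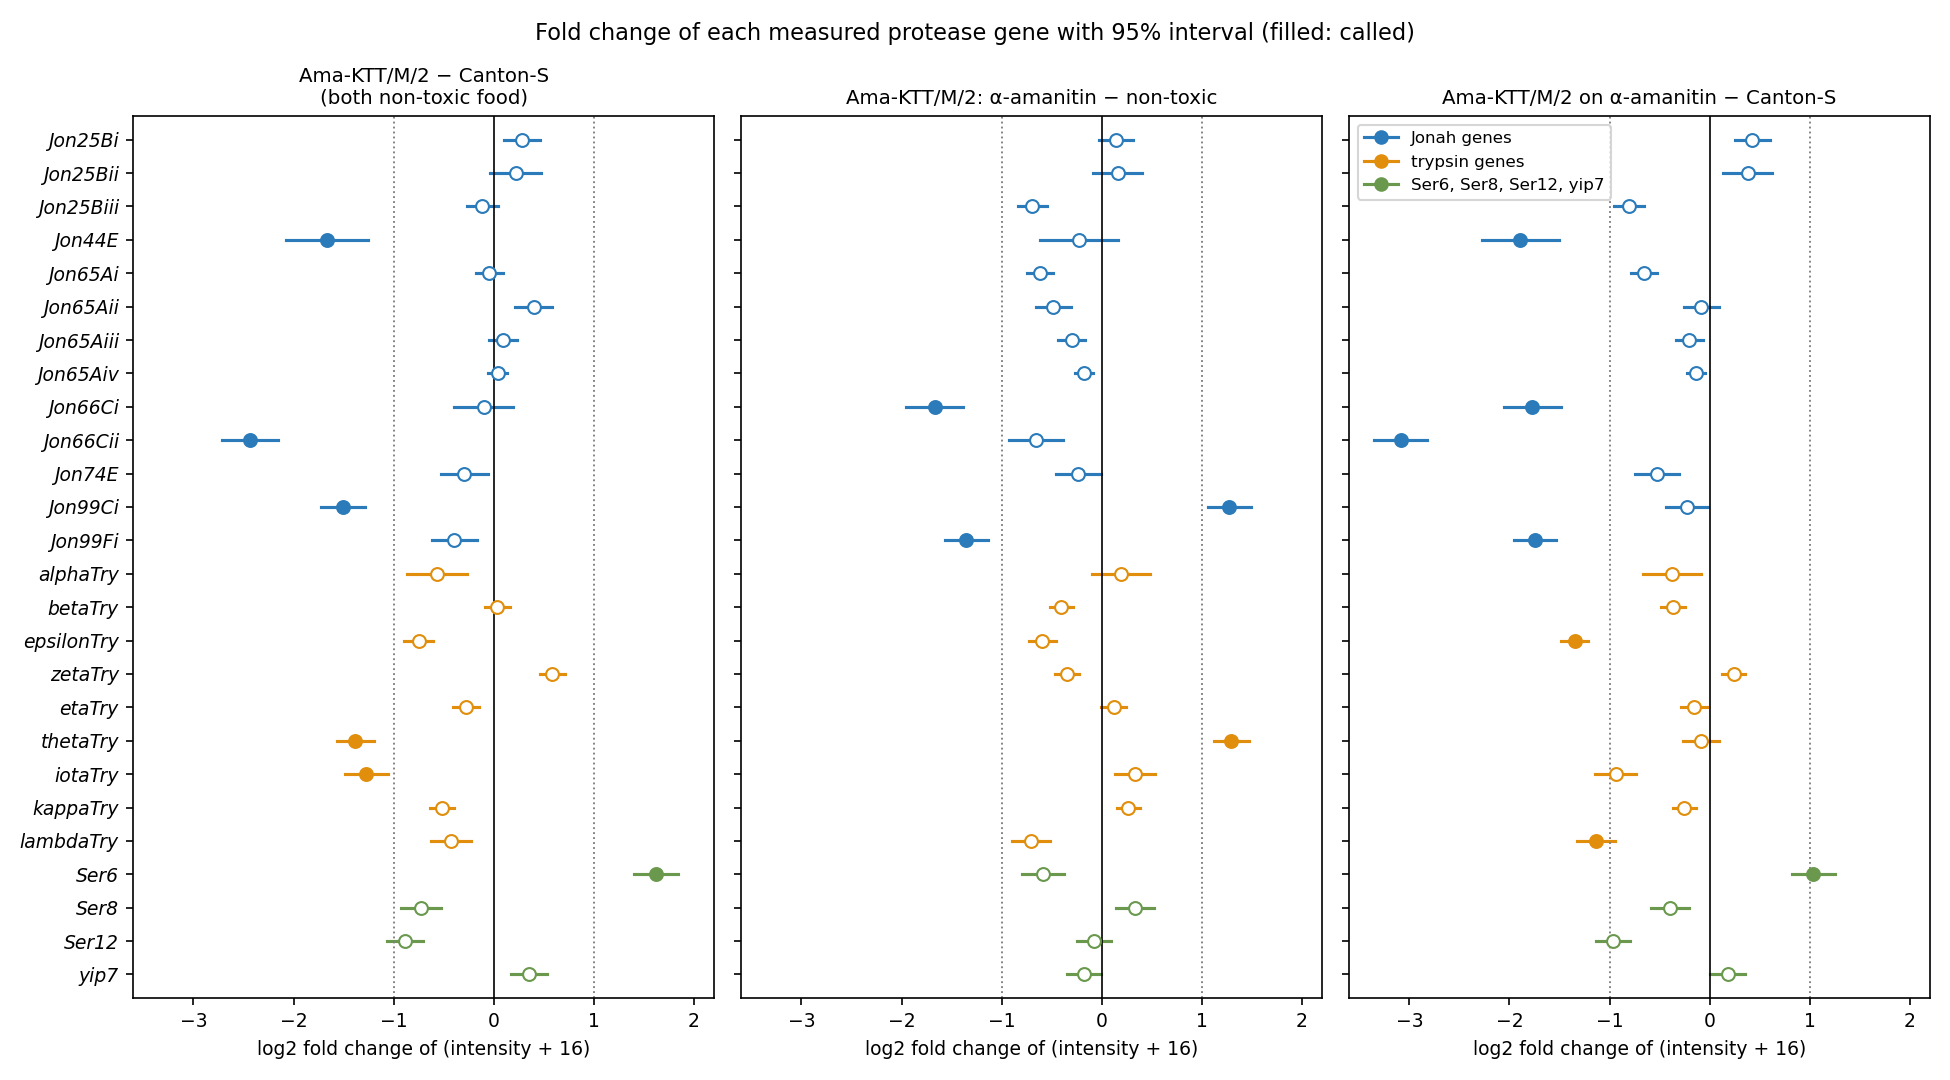
Log2 fold change of (intensity + 16) of the 26 measured protease genes in each of the 3 comparisons, with the 95% interval of the limma fit. Filled points are called genes, dotted lines mark 2-fold, and colours give the family; *Jon99Ci* and *thetaTry* lie left of zero in the first panel, right of zero in the second and near zero in the third.

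On α-amanitin, 4 protease genes of the resistant stock were called against the same stock on non-toxic food, 2 in each direction. *Jon66Ci* and *Jon99Fi* fell by 3.18- and 2.55-fold, and *thetaTry* and *Jon99Ci* rose by 2.46- and 2.42-fold. Among all probe sets 1.83% were called higher and 1.11% lower, 2.94% in all. At the adjusted p alone, 13 of the 26 genes were lower and 5 were higher, with 16.5% and 17.7% of all probe sets. By rank products 8 were lower and 2 were higher. Replicate 6 exists only on the toxin, so rank products and the replicate block draw nothing from it in either comparison with the toxin. The pools on the 2 foods did not overlap for 12 genes that were lower and 3 that were higher, beside 11.5% and 10.2% of all probe sets. This comparison and the one between the stocks share the 5 pools of the resistant stock without toxin, so their values are given side by side and are not independent.

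The largest fall was that of *Jon66Ci*, the neighbour of *Jon66Cii*. *Jon66Ci* had intensities of 9075, 8878, 9218, 8632 and 9178 in the 5 pools on non-toxic food. In the 6 pools on α-amanitin the lowest value was 1853, the median 3000.3 and the highest 3825. No pool on the toxin reached the level of any pool without it. The means were 2889.8 ± 685 (SD, n = 6) and 8996 ± 242 (SD, n = 5), and the fall was 3.18-fold (limma, adjusted p = 2.02e-07). *Jon66Cii* had 1311, 1611 and 2373 as its lowest, median and highest value on the toxin. Its groups overlapped, and it passed below the fold limit with a 1.57-fold lower level.

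*Jon99Fi*, a Jonah gene on 3R beside *Jon99Fii*, had 5463, 4576, 5144, 6288 and 5132 on non-toxic food. On α-amanitin it had 1806 at the lowest, 2038 as the median and 2459.5 at the highest. The groups did not overlap, and the level fell by 2.55-fold (limma, adjusted p = 8.19e-08). The other Jonah gene measured at that end of the chromosome, *Jon99Ci*, went the other way. Its values on the toxin ranged from 3801 over a median of 4444 to 5319, against 1571 to 2058 without it. Every pool on the toxin was higher, by 2.42-fold on average (limma, adjusted p = 1.45e-07).

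Of the 13 Jonah genes, 8 passed with lower levels on the toxin at the adjusted p alone, and *Jon99Ci* was the only one that passed with a higher level. By rank products 5 passed with lower levels and 1 with a higher one. Besides those named, *Jon25Biii* was 1.62-fold lower, with 7109 ± 738 (SD, n = 6) against 11441 ± 122 (SD, n = 5). *Jon65Ai*, *Jon65Aii*, *Jon65Aiii* and *Jon65Aiv*, which lie next to each other on 3L, were 1.53-, 1.40-, 1.23- and 1.13-fold lower. All 4 of these adjacent genes had no overlap between the foods. By rank products *Jon65Ai* passed, and *Jon65Aii*, *Jon65Aiii* and *Jon65Aiv* did not (adjusted p = 0.0734, 0.539 and 0.905). *Jon65Aiv* did not pass with repeated quantile normalization either (0.0993). *Jon65Aiii* had 9441 ± 709 (SD, n = 6) and *Jon65Aiv* 10892 ± 344 (SD, n = 6) on the toxin. *Jon25Bi*, *Jon25Bii*, *Jon44E* and *Jon74E* did not pass, with log2 differences of 0.15, 0.16, -0.22 and -0.23. *Jon25Bi* passed without replicate 6 on the toxin (adjusted p = 0.022), and with the block, to which that pool adds nothing (0.0382). It also passed with repeated quantile normalization (0.0204). *Jon44E* passed without replicate 4 on the toxin (0.0339), and *Jon74E* with scaling to 1 median (0.0364). *Jon44E* was the most variable of the family on the toxin, with 715 at the lowest, 1160.1 as the median and 2034 at the highest, and a mean of 1198 ± 460.0 (SD, n = 6).

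The trypsin genes changed in both directions on the toxin. Of the 9 genes, 3 passed with higher and 4 with lower levels at the adjusted p alone, and 2 did not pass. *thetaTry* was the only one called. It had 1782, 2081 and 2438 as its lowest, median and highest intensity on the toxin, against 816 to 936 without it. All 6 pools on the toxin were above all 5 pools without it, by 2.46-fold (limma, adjusted p = 1.61e-08). *iotaTry* and *kappaTry* passed with higher levels, by 0.33 and 0.27 on the log2 scale. *lambdaTry*, *epsilonTry*, *betaTry* and *zetaTry* passed with lower levels by 1.63-, 1.51-, 1.32- and 1.27-fold, each without overlap. By rank products *lambdaTry* and *epsilonTry* still passed, and *iotaTry*, *kappaTry*, *betaTry* and *zetaTry* did not (adjusted p = 0.233 to 0.57). *betaTry* had 9559 ± 536 (SD, n = 6) on the toxin, the lowest of the 3 groups. *alphaTry* and *etaTry* did not pass, with log2 differences of 0.19 and 0.12, except that *etaTry* passed with repeated quantile normalization (adjusted p = 0.0396).

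The median log2 difference on the toxin was -0.30 over the Jonah genes and 0.12 over the trypsin genes, beside 0.02 over all probe sets. The means over the families were -0.37 and 0.02. Of the 4 other genes, *Ser6* was 1.50-fold lower on the toxin and passed below the fold limit (limma, adjusted p = 0.000333), with 1017, 1186 and 1293 as its lowest, median and highest value. *Ser8* was 1.26-fold higher, with 96.2 ± 10.7 (SD, n = 6) and overlapping groups, and did not pass by rank products (adjusted p = 0.442). *Ser12* had 54.2 ± 7.18 (SD, n = 6) and *yip7* 6642 ± 841 (SD, n = 6), and neither passed, except *yip7* without replicate 4 on the toxin (adjusted p = 0.0407).

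Set against Canton-S, the resistant stock on α-amanitin had 6 protease genes called lower and 1 called higher, where 1.63% and 1.53% of all probe sets were called (3.16% in all). The pools did not overlap for 15 genes that were lower and 1 that was higher, beside 7.7% and 11.1% of all probe sets. Under 2 other scalings of the arrays, a repeat of the quantile normalization and a scaling to the same median, the split was 8 lower and 0 higher. The 6 lower genes were *Jon66Cii*, *Jon44E*, *Jon66Ci*, *Jon99Fi*, *epsilonTry* and *lambdaTry*. The level of *Jon66Cii* was 8.50-fold lower than in Canton-S (1714 ± 397, SD, n = 6; limma, adjusted p = 7.17e-12), the largest difference of any protease gene in the 3 comparisons. *Jon44E* was 3.71-fold, *Jon66Ci* 3.41-fold and *Jon99Fi* 3.35-fold lower, each without overlap between the pools.

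Both called trypsin genes were lower in the stock comparison and lower again on the toxin, each time below the fold limit. *epsilonTry* had 12882, 13041, 11568, 13162 and 12004 in Canton-S and 7842, 8096, 7587, 6687 and 7019.7 in Ama-KTT/M/2. On the toxin it had 4423 at the lowest, 4962 as the median and 5257 at the highest. The 3 groups formed 3 separate levels, and the last was 2.54-fold below the first (limma, adjusted p = 4.78e-11). *lambdaTry* had 2453, 2674, 2646, 3022 and 2445 in Canton-S and 1869, 1845, 1958, 2294 and 1863 in Ama-KTT/M/2. On the toxin it had 952, 1216 and 1352, which is a log2 difference of -1.14 from Canton-S (limma, adjusted p = 4.93e-08), and here too no pools of different groups overlapped.

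In contrast, *thetaTry* and *Jon99Ci* on the toxin did not pass the test against Canton-S. The log2 difference was -0.09 for *thetaTry*, with a 95% interval from -0.26 to 0.09. It was -0.23 for *Jon99Ci*, with an interval from -0.44 to -0.02 (limma, adjusted p = 0.0967), and *Jon99Ci* did pass with a lower level when the arrays were scaled to 1 median (0.0389) and without replicate 4 on the toxin (0.0434). *Ser6* remained higher than in Canton-S at 1168 ± 121 (SD, n = 6), by 2.05-fold (limma, adjusted p = 5.49e-07). This call lies close to the fold limit. The log2 difference of *Ser6* was 1.04, and it was 0.98 with an offset of 64, 0.96 under both other scalings and 0.96 without replicate 3 of Canton-S, so that *Ser6* was not called in these settings. *iotaTry* with a log2 difference of -0.94 (376 ± 59.1, SD, n = 6) and *Ser12* with -0.96 lay just short of the limit, and both were called lower under the other scalings and without replicate 4 on the toxin (-1.009 and -1.002). *Ser12* was also called without replicate 5 of Canton-S (-1.004).

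Of the 13 Jonah genes, 9 passed with lower and 2 with higher levels than in Canton-S at the adjusted p alone, and of the 9 trypsin genes 6 passed with lower and 1 with a higher level. For all probe sets these shares were 11.7% lower and 19% higher. By rank products 6 Jonah and 3 trypsin genes passed with lower levels and none with a higher one. *alphaTry*, *Jon65Aiii* and *Jon65Aiv* are among the genes that passed in limma but not with the replicate block (adjusted p = 0.141, 0.0952 and 0.0864) or without replicate 4 of Canton-S (0.127, 0.0557 and 0.0535). The 2 Jonah genes with higher levels, *Jon25Bi* and *Jon25Bii*, are neighbours on 2L and were 1.35- and 1.30-fold higher. By rank products they did not pass (adjusted p = 0.176 and 0.36), and *Jon25Bii* did not pass in limma without replicate 1 of Canton-S (0.0569). The remaining gene of that row, *Jon25Biii*, was 1.75-fold lower. The median log2 difference was -0.53 over the Jonah genes, -0.37 over the trypsin genes and 0.04 over all probe sets.

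The genes that were called in no comparison had the following ranges over the pools, given in the order Canton-S, Ama-KTT/M/2 and toxin. *Jon25Bi* lay at 4215 to 5009.8, 4970.4 to 6203 and 4876 to 6581, and *Jon25Bii* at 3583 to 5612, 4675 to 6335 and 4726 to 6939.8. *Jon25Biii* lay at 11192 to 13340.5, 11241 to 11546 and 5781 to 7770.4. So the first pair overlapped between the foods, and *Jon25Biii* on the toxin was below every other pool. *Jon65Ai* lay at 5850.1 to 6980.1, 5822 to 6302 and 3725 to 4546, and *Jon65Aii* at 4451 to 5828, 5782 to 6979 and 4086 to 5589.8. *Jon65Aiii* lay at 10277 to 11739.5, 10949.7 to 12807 and 8294 to 10167, and *Jon65Aiv* at 11625 to 12423, 11728 to 12760.3 and 10448 to 11262. All *Jon65A* genes but *Jon65Aii* had their toxin pools below both other groups. *Jon74E* lay at 7848 to 9555, 6537 to 8148 and 4731 to 7120.2, with overlap between Canton-S and Ama-KTT/M/2 and between the foods.

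Of the trypsin genes, *alphaTry* lay at 4934 to 8719, 3774 to 5498 and 4439 to 6176, and it had the highest coefficient of variation of its family in Canton-S, 20.4%. *betaTry* lay at 11838 to 12729, 11716 to 13766 and 8625 to 10057. *zetaTry* lay at 1707 to 2062, 2694 to 2872 and 2019 to 2331. The toxin pools of *betaTry* were below all others, and those of *zetaTry* reached down into the Canton-S range. *etaTry* lay at 1034 to 1126, 816 to 910.0 and 874 to 1075, and *kappaTry* at 1465 to 1648, 998 to 1144 and 1221 to 1431. For *kappaTry* the 3 groups did not overlap, with the toxin pools between the others. *yip7* lay at 5632 to 6086, 6774 to 8376 and 5749 to 7779, *Ser8* at 107 to 159, 66.3 to 81.2 and 78.4 to 111, and *Ser12* at 106 to 141, 53.1 to 63.3 and 44.7 to 63.6. *Ser12* was low in both groups of the resistant stock.

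Averaged over each family, the groups lay at different levels. The mean log2 level over the 13 Jonah genes was 12.80 to 12.91 in the Canton-S pools, 12.41 to 12.46 in the Ama-KTT/M/2 pools and 11.86 to 12.29 in the pools on the toxin. The mean over the 9 trypsin genes was 11.47 to 11.59, 10.96 to 11.05 and 10.90 to 11.10. The 3 groups of Jonah values did not overlap, whereas the trypsin values of the resistant stock overlapped between the foods. These means over chosen genes were not tested. Subtracting the trypsin mean from the Jonah mean in each pool gave a median of 1.34 in Canton-S, 1.45 in Ama-KTT/M/2 and 1.04 on the toxin, and only the change of this value between groups can be read, because it joins different probe sets. The range on the toxin was 0.78 to 1.30, below the 1.38 to 1.46 of the same stock without it.

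**Figure D3:**
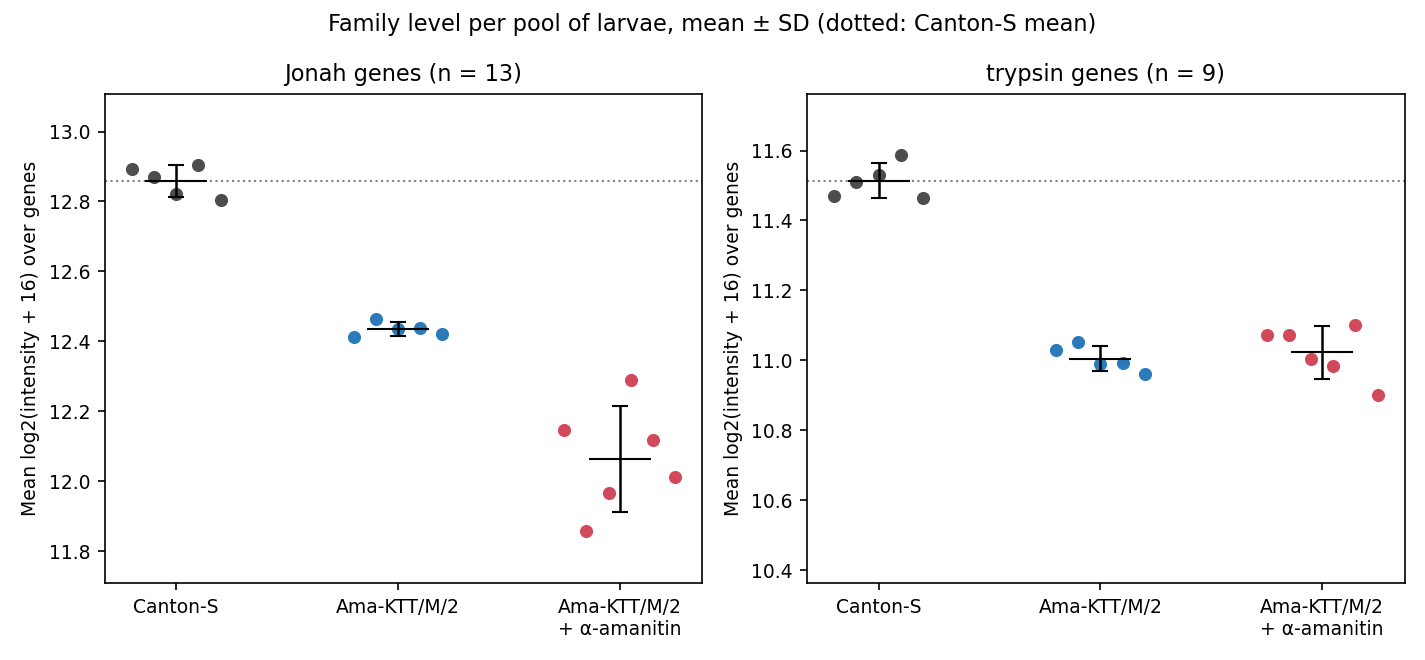
Mean log2(intensity + 16) per pool of larvae over the 13 Jonah genes (left) and the 9 trypsin genes (right), with bars for the mean ± SD of each group and a dotted line at the Canton-S mean. The Jonah pools lie at 12.80 to 12.91, 12.41 to 12.46 and 11.86 to 12.29 in the 3 groups, and the trypsin pools of Ama-KTT/M/2 at 10.96 to 11.05 and 10.90 to 11.10 without and with the toxin.

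Of the pools on α-amanitin, 2 stood at the ends of the range for most Jonah genes. Replicate 4 had the highest level of 11 of the 13 Jonah genes, and replicate 2 had the lowest level of 9. For the trypsin genes, replicate 2 had the highest level of 5 of the 9 genes and the lowest of 2, and replicate 4 had the highest of 1. The genes of a pool share an array and a set of larvae, so these counts describe 2 pools and were not tested. The median coefficient of variation over the Jonah genes was 7.86% in Canton-S, 8.37% in Ama-KTT/M/2 and 11.5% on the toxin, and that over the trypsin genes was 7.24%, 6.85% and 8.72%.

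Most of the genes lie in rows of relatives. In the Release 6 gene table the trypsin genes form 1 cluster on 2R in the order *lambdaTry*, *kappaTry*, *zetaTry*, *etaTry*, *thetaTry*, *alphaTry*, *epsilonTry*, *betaTry* and *gammaTry*, with no other gene between them. *deltaTry* follows after 2 further genes and *iotaTry* after 1 more. Neighbours in this cluster had different values. *zetaTry* was 1.50-fold higher in the resistant stock while *kappaTry* and *etaTry* on either side of it were lower by 1.43- and 1.21-fold. *thetaTry* rose 2.46-fold on the toxin, and its neighbours *etaTry* and *alphaTry* had log2 differences of 0.12 and 0.19, which did not pass. *epsilonTry* and *betaTry* are adjacent, and between the stocks the first was 1.68-fold lower while the second did not pass. The neighbours *Jon66Ci* and *Jon66Cii* had log2 differences of -0.10 and -2.43 between the stocks and -1.67 and -0.65 on the toxin. The differences between neighbours were not themselves tested. Genes of such rows can be near-identical in sequence, so their probes may in part read each other's RNA, which was not tested because no probe sequences were used here.

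**Figure D4:**
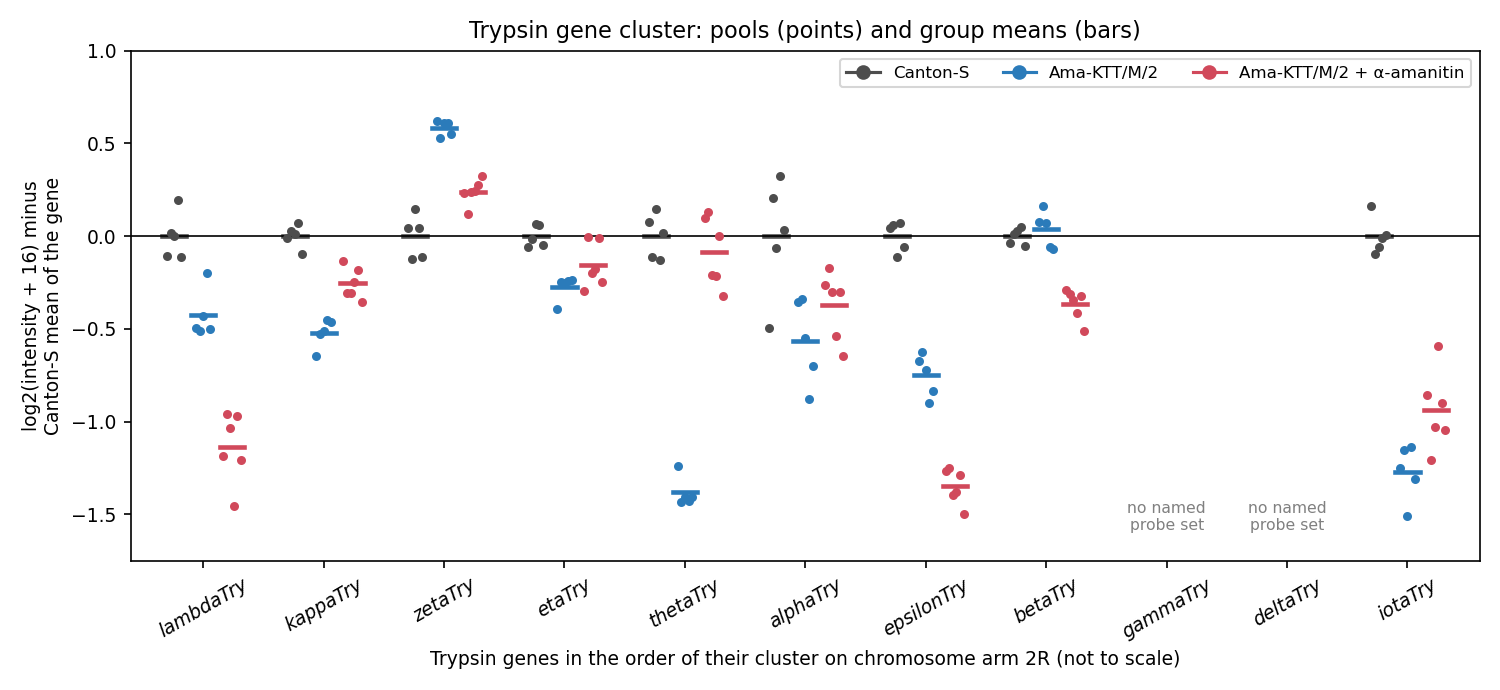
Trypsin genes in the order of their cluster on chromosome arm 2R (horizontal, not to scale) against log2(intensity + 16) relative to the Canton-S mean of each gene (vertical), with a point per pool and a bar at each group mean. *gammaTry* and *deltaTry* had no named probe set; *zetaTry* lies above zero in both groups of the resistant stock, and *thetaTry* lies near zero on the toxin and at -1.38 without it.

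Markers of other tissues moved strongly between the same groups. The 7 salivary gland glue genes, which come on towards the end of larval life, were all called lower in Ama-KTT/M/2 and all called higher on the toxin. Of all probe sets, 2.42% and 1.83% were called in these directions. Their mean log2 level was 6.81 to 11.65 in Canton-S, 4.07 to 4.16 in Ama-KTT/M/2 and 4.14 to 12.85 on the toxin. The 3 measured genes of the larval fat body, *Lsp2*, *Fbp1* and *Fbp2*, had mean log2 levels of 9.58 to 12.07, 4.29 to 6.47 and 6.88 to 13.28 in the 3 groups. *thetaTry* and *Jon99Ci* were also lowest in Ama-KTT/M/2. Replicate 2 on the toxin had a glue level of 4.14, within the range of the Ama-KTT/M/2 pools. Its fat body level of 6.88 was above their highest, 6.47. Its *thetaTry* intensity of 2438 was the highest on the toxin. Its *Jon99Ci* intensity of 3801 was the lowest on the toxin and above the 2058 that was the highest in Ama-KTT/M/2. Its *Jon66Ci* intensity of 1853 and its *Jon99Fi* intensity of 2225 were below all pools without the toxin. The part of these tissues and of larval age in the protease results was not tested. In Canton-S, replicate 4 had the lowest glue level, 6.81, with a *thetaTry* intensity of 2042 and a *Jon99Ci* intensity of 4988. Without the 3 pools that stood apart, the counts of called genes were still 1 higher and 5 lower between the stocks, 2 and 2 on the toxin, and 1 and 6 against Canton-S.

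**Figure D5:**
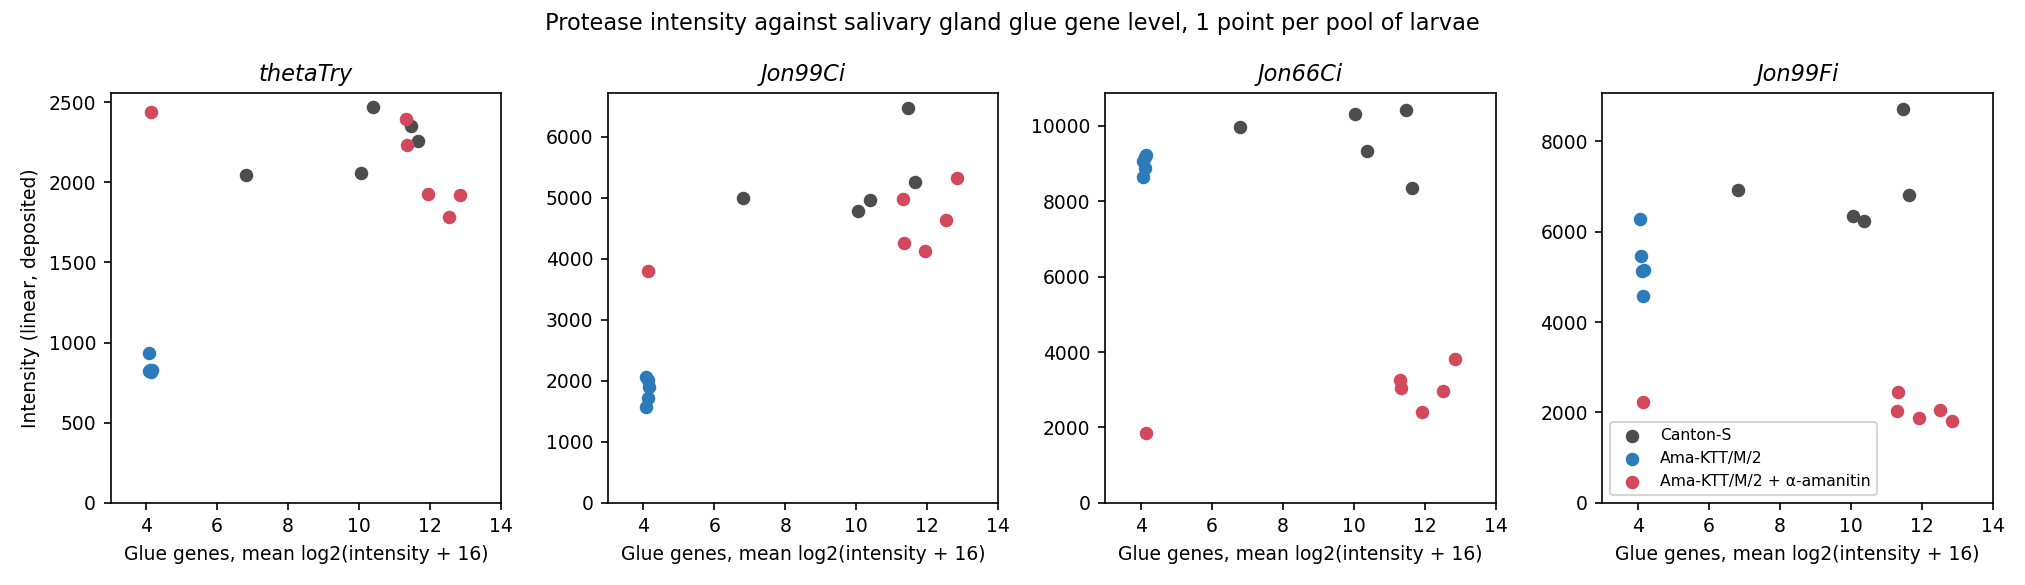
Intensity of *thetaTry*, *Jon99Ci*, *Jon66Ci* and *Jon99Fi* (vertical, linear) against the mean log2(intensity + 16) of the 7 salivary gland glue genes (horizontal), with 1 point per pool. Replicate 2 on α-amanitin lies at a glue level of 4.14, and its 4 protease intensities are 2438, 3801, 1853 and 2225. It is 1 pool, and the part of larval age in these values was not tested.

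Markers of the gut itself differed less. None of the 4 measured genes of the gut epithelium was called in any of the 3 comparisons. *mex1*, a gene of the midgut brush border, had 4825 ± 544 (SD, n = 5) in Canton-S, 4029 ± 246 (SD, n = 5) in Ama-KTT/M/2 and 3646 ± 567 (SD, n = 6) on the toxin. It passed below the fold limit between the first and the last group, with a 1.33-fold lower level (limma, adjusted p = 0.00597). *nub*, which encodes a factor of enterocytes, was 1.56-fold lower in Ama-KTT/M/2 (limma, adjusted p = 0.000237). On the toxin it was 1.45-fold lower than in Canton-S (limma, adjusted p = 0.00131). *GATAe*, an endodermal GATA factor gene, was 1.26-fold lower on the toxin (limma, adjusted p = 0.00695), and *Vha100-4*, a subunit of the proton pump, did not pass in any comparison. The mean log2 level of the 4 genes was 9.88 to 10.17, 9.80 to 9.91 and 9.57 to 9.97 in the 3 groups. Of the 7 measured genes of enteroendocrine cells and the 4 of muscle, none was called in any comparison. At the adjusted p alone, 1 enteroendocrine gene was higher and 2 lower between the stocks (all probe sets 24.6% and 18.8%). On the toxin it was 1 and 1 (17.7% and 16.5%), and against Canton-S 0 and 1 (19% and 11.7%). For muscle the counts were 1 and 1, 2 and 1, and 0 and 0. The part of gut mass in the protease results was not tested.

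Genes of other digestive enzymes, and lysosomal and other protease genes, were measured on the same arrays. For starch and sugar digestion 13 probe sets were measured, 1 of which reads both amylase genes. Between the stocks 3 were called lower, where 2.42% of all probe sets were. These were the maltase genes *Mal-A5* and *Mal-A8* and the glucosidase-like gene *tobi*, by 2.53-, 3.36- and 3.07-fold. On the toxin 5 were called higher and none lower, where 1.83% and 1.11% of all probe sets were. The 4 largest of the 5 rises were those of *Mal-A8*, *Mal-A5*, *tobi* and *Mal-A6*, by 6.41-, 3.49-, 2.97- and 2.74-fold. Against Canton-S only *Mal-A6* was called, 2.25-fold higher, where 1.53% of all probe sets were called higher. The median log2 difference of the 13 was -0.90 between the stocks, 0.57 on the toxin and 0.03 against Canton-S. Of the digestive lysozymes, 3 had a probe set. *LysP* was called higher in the resistant stock on both foods, *LysX* was called lower in it on non-toxic food and higher on the toxin, and *LysS* was not called. Of 8 lysosomal and other protease genes, *CtsL1*, *cathD*, *CtsB*, *CtsF*, *Bace*, *Sp7*, *Send1* and *Send2*, none was called in any comparison. They were not chosen as digestive enzymes. *Send1* and *Send2* were dim, with group means of at most 3.51 and 23.2. At the adjusted p alone, 4 of the 8 were higher on the toxin and 0 lower, where 17.7% of all probe sets were higher. These were *CtsB*, *cathD*, *CtsF* and *CtsL1*, by 1.91-, 1.70-, 1.49- and 1.19-fold. Between the stocks 2 of the 8 were higher and 4 lower, where 24.6% and 18.8% of all probe sets were. Against Canton-S 2 were higher and 1 lower, where 19% and 11.7% of all probe sets were.

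Of 8 measured genes that are known to regulate digestive enzymes, *sug* was the only one called. This sugar-responsive zinc finger gene had 285 ± 47.5 (SD, n = 5) in Canton-S, 422 ± 59.0 (SD, n = 5) in Ama-KTT/M/2 and 111 ± 21.4 (SD, n = 6) on the toxin. It was 3.45-fold lower on the toxin than without it (limma, adjusted p = 2.70e-08) and 2.37-fold lower than in Canton-S (limma, adjusted p = 5.74e-07). At the adjusted p alone, 4 of the 8 were higher and none was lower between the stocks, where 24.6% of all probe sets were higher. On the toxin 4 were lower and none was higher, where 16.5% of all probe sets were lower. Against Canton-S 1 was higher and 1 was lower, where 19% and 11.7% of all probe sets were. Whether these regulators have a part in the protease levels was not tested.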

How the data were processed

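RNA of 16 pools of larvae was measured on 1 array each. The deposited intensity values, on a linear scale, were made by the authors in Affymetrix Power Tools (quantile normalization, mismatch adjustment and PLIER), after image extraction in Expression Console 1.2. The 183 control probe sets of 18952 were left out. Genes were named from the platform's probe table. Gene order was taken from the start positions in the Release 6 gene table, and no sequences were used. Groups came from the sample labels. No pair of arrays (of 120) held identical values.

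A linear model of log2(intensity + 16) was fitted to the 3 groups of 16 arrays in limma 3.58.1 under R 4.3.3 (lmFit, eBayes), without covariates or a filter. The Benjamini-Hochberg adjustment covered 18769 probe sets in each of 3 comparisons. The analysis was tested on simulated data. Figures were drawn with matplotlib 3.10.9 in Python 3.11.15.

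Every gene with a probe set is named; values in full are given for genes called in at least 1 comparison and for the brightest and dimmest of each family. Other genes are named as called members of lists, at most 4 a list and comparison. The genes of the gut epithelium list, those of the list of other proteases, *LysS*, *Lsp2*, *Fbp1* and *Fbp2* were added after their values were seen. The members and the lists were chosen with earlier results of these data known. Alternatives tried were offsets of 1 and 64, a minimum mean intensity of 64, repeated quantile normalization, scaling to 1 median, fits of 2 groups only, rank products, the replicate number as a block, probe sets of 1 gene only and leaving out each pool. Leaving out 3 pools that stood apart was chosen after seeing the data. Precision is limited by the number of pools.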

Additional observations from a re-analysis of the deposited data

Results flagged for a closer look

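In 8 of 78 sets of a protease gene in a group, 1 pool lay farther from the others than a test for a single outlying value allows, and chance alone flags about 1 in 20 groups. In Canton-S, replicate 1 had the highest *Jon99Ci* intensity, 6464, where the other pools had 4783 to 5251. The same pool had the highest *Jon99Fi* intensity, 8712, where the others had 6240.2 to 6915. In Ama-KTT/M/2 without the toxin, replicate 1 had the lowest *etaTry* intensity, 816, with the others at 901 to 910.0. It also had the highest *thetaTry* intensity, 936, with the others at 816 to 831. Replicate 4 had the lowest *Jon65Ai* intensity, 5822, with the others at 6185 to 6302. It had the highest *lambdaTry* intensity, 2294, with the others at 1845 to 1958. Replicate 2 had the lowest *Ser6* intensity, 1382, with the others at 1816 to 1910.5. On α-amanitin, replicate 6 had the lowest *Jon25Bi* intensity, 4876, with the others at 6173 to 6581.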

How the results depend on the processing

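Of 2028 values of a protease gene in a comparison under an alternative, 2012 kept their direction and their side of the limits for a call (adjusted p and 2-fold). Many of these values could not change direction. Each gene had only 1 probe set, so using probe sets of 1 gene only repeated the main fit. The minimum intensity, the fit of 2 groups and leaving out a pool of the third group kept each fold change. The count therefore overstates how far the results were checked. Between the stocks, repeated quantile normalization turned the sign of *Jon65Aiii* (-0.0206), *Jon65Aiv* (-0.0511) and *betaTry* (-0.0655), none of which passed the test. It moved the Jonah median to -0.22 and the trypsin median to -0.60, and the trypsin median was -0.45 without the 3 pools that stood apart. Against Canton-S on the toxin, 0 genes were called higher with an offset of 64, with repeated quantile normalization and with scaling to 1 median, the trypsin median was -0.44 with that scaling, and the Jonah median was -0.42 without the 3 pools. The median over all probe sets moved by less than 0.1 throughout. Leaving out 1 pool at a time gave 1 gene called higher and 5 lower between the stocks, 2 and 2 on the toxin, and 0 to 1 higher and 6 to 8 lower against Canton-S. The Jonah medians ranged from -0.11 to -0.07, -0.39 to -0.26 and -0.57 to -0.45, and the trypsin medians from -0.54 to -0.49, 0.09 to 0.15 and -0.38 to -0.29, in that order. The trypsin median against Canton-S moved most without replicate 4 of Canton-S. Over all probe sets the counts were 427 to 476 lower and 553 to 686 higher between the stocks.

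The calls over the whole array depend on the offset: with 1 in place of 16, 823 probe sets were lower between the stocks, 738 were higher on the toxin and 521 were higher against Canton-S. With 64 they were 383 higher and 266 lower, 195 and 138, and 179 and 189. The cause of none of these changes was tested. The replicate numbers did not pair the pools, as deviations of same-numbered pools correlated at -0.42 to 0.27 (median 0.07, 15 pairs). Replicate 6 exists only on the toxin, so the block and rank products are not checks separate from leaving it out. The log2 difference of *alphaTry* on the toxin against Canton-S was -0.3167 with the block, by rank products and without replicate 6. With the replicate number as a block, 1 and 5, 2 and 2, and 1 and 6 genes were called higher and lower in the 3 comparisons, and the block changed no call of a protease gene at 2-fold. At the adjusted p alone, the block gave 5 higher and 13 lower, 6 and 13, and 4 and 14 genes, against 5 and 14, 5 and 13, and 4 and 17 without it. The rank product test and the fit of 2 groups only changed no call at 2-fold, but at the adjusted p alone rank products gave 1 higher and 8 lower, 2 and 8, and 1 and 10. Whether a difference below 2-fold passed thus depended in part on the test. Rank products rank a gene's ratio among all probe sets, so a small change can fail them although its pools do not overlap. Between the stocks, *kappaTry* was 1.43-fold lower without overlap, with adjusted p = 1.55e-06 in limma and 0.124 by rank products. Against Canton-S on the toxin, scaling to 1 median gave 2 higher and 19 lower at the adjusted p alone. Dim genes such as *Ser8* and *Ser12*, near the array's median, are limited by signal over background.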
